A study of Bos taurus with 24 samples.

Results

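The expression of 10 genes of mitochondrial fatty acid beta-oxidation was followed through 24 single early bovine blastocysts. The genes, CPT1A, CPT2, ACADVL, ACADM, ACADS, HADHA, HADHB, ECHS1, HADH and ETFDH, were chosen by symbol, and all 10 were found among the 24621 genes of the count data. The data are counts of uniquely mapped fragments over exons, with each embryo sequenced on its own. The 8 in vivo derived embryos (5 male, 3 female; A in the embryo names) were flushed from superovulated Holstein cows 7 days after insemination. The 8 embryos produced in serum-containing medium (3 male, 5 female; B) came from oocytes matured with 20% fetal bovine serum and were cultured with 5% serum. The 8 embryos produced in serum-free medium (5 male, 3 female; C) came from oocytes matured with epidermal growth factor and were cultured with 0.4% bovine serum albumin plus insulin, transferrin and selenium. Both in vitro groups were cultured in synthetic oviduct fluid from oocytes of slaughterhouse ovaries and were collected on day 6 or 7. They differed from the in vivo group in the origin of the oocyte, in fertilization in vitro and in the days of collection as well as in the culture. Semen of the same bull was used throughout. Cow and in vitro experiment are not given for each embryo, so p-values measure the spread between embryos that may share a mother or an experiment.

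Beta-oxidation shortens fatty acids inside the mitochondrion in repeated cycles of dehydrogenation, hydration, dehydrogenation and thiolysis, and feeds acetyl-CoA and electrons to energy production. Long-chain fatty acids are first carried across the mitochondrial membranes as carnitine esters. The bovine oocyte and early embryo are rich in lipid droplets, and embryos grown with serum are known for a high lipid content, so the question here is how the genes of this pathway were expressed under each culture condition. Levels are given as CPM (the count relative to the library total) scaled by the TMM method, which corrects for the total and the composition of each library. Levels were not divided by gene length and are compared between embryos, not between genes.

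The total count per embryo ranged from 3253051 to 9000447. The Y-linked gene DDX3Y had 101 counts or more in the 13 male and at most 2 in the 11 female embryos, as their labels say. XIST, an X-linked gene, had 297 counts or more in the females and 11 to 63 in the males other than B5. The serum male B5 had 243 XIST counts of 9000447, the largest total. The next highest male count was 63 of 4569863, in C7. Embryos were compared over the 7557 genes tested in at least 1 comparison of culture conditions with the sexes pooled. Those within the in vivo group resembled each other most, with a median Pearson correlation to their group of 0.927 or more. Embryo B2 stood apart among the serum group with 0.77 against 0.862 for the next lowest. Calls for the 10 genes in serum are therefore also given without B2. The serum group was lower in trophectoderm markers, with 5 of the 7 tested of 10 found (KRT8, KRT18, GATA2, GATA3 and IFNT) passing the test described below: their summed level was 7448 to 14679 CPM in vivo, 327.9 to 5169 CPM in serum and 5007 to 28102 CPM in serum-free medium. Hypoblast markers, 2 of 4 tested, (PDGFRA and FN1) were lower too, with sums of 4666 to 7364 CPM in vivo, 34.5 to 3013 CPM in serum and 3328 to 5812 CPM in serum-free medium. CDX2, a defining trophectoderm gene, had at least 1 count in 8 in vivo, 6 serum and 5 serum-free embryos, and SOX17, a defining hypoblast gene, had none in the in vivo and serum groups. Of the 3 inner cell mass markers tested, 1 (SOX2) was higher in serum. Of all 7339 genes tested between serum and in vivo, 13.4% were lower and 14.8% higher in serum. With so few markers in each list, the marker counts are descriptions. Cumulus and granulosa markers summed to at most 44.1 CPM and blood and endometrium markers to at most 4.29 CPM in any embryo of the 3 groups. Fewer cells of a type and less RNA per cell cannot be told apart in whole embryos, and the part of these markers in the results below was not tested.

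Embryos produced in serum-containing medium had lower levels of 6 of the 10 genes than in vivo derived embryos. The genes were ACADS, HADHA, ETFDH, ACADM, CPT2 and ECHS1, and 3 of them, ACADS, HADHA and ETFDH, were differentially expressed (FDR corrected p-value under 0.05 and fold change (FC) of at least 2). No gene was higher. The expression of HADHB, HADH, ACADVL and CPT1A was not different by the test. The background was high in this comparison: 28.3% of the 7339 genes tested passed the same p threshold, 13.4% of them lower and 14.8% higher in serum, and 13.8% were differentially expressed. With 1 embryo left out at a time, 4 to 6 genes passed and 2 or 3 were differentially expressed, the latter being 2 without A1, A4 or A7. The median log2 FC (serum over in vivo) was -0.67 over the 10 genes and 0.01 over all genes tested. The test was limited to genes with 15 counts or more throughout 1 of the groups or both. ACADS passed this limit through the in vivo group alone, since 6 of the 8 serum embryos had fewer, and a gene that enters in this way is favoured to be higher in the group that lets it in. The other 9 genes had 15 counts or more in all 24 embryos, and 5 of these 9 passed the test also when the limit was set on both groups.

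**Figure D1:**
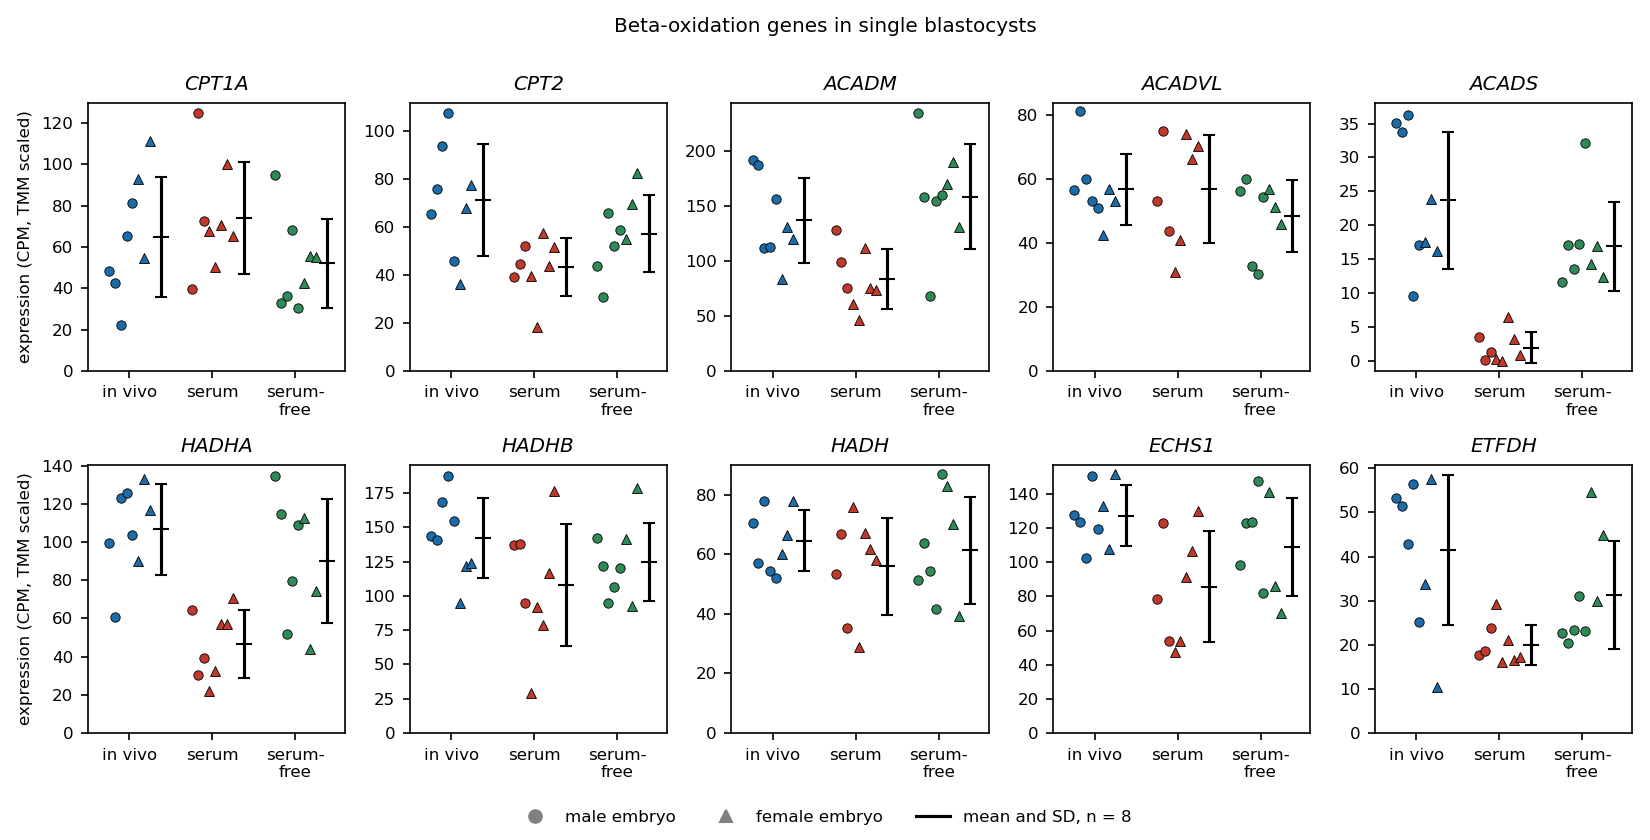
Level of each gene (vertical axis, CPM scaled by TMM, a linear axis with its own scale in each panel) in every embryo by culture condition; circles are male and triangles female embryos, and the bars give the mean and SD of 8 embryos. ACADS in serum lay between 0 and 6.52 CPM, below every in vivo embryo, while the groups overlapped for the other 9 genes.

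ACADS encodes the short-chain acyl-CoA dehydrogenase, which starts the last turns of the cycle. Its level in vivo was 9.6 CPM in the lowest embryo, 20.7 CPM at the median and 36.2 CPM in the highest embryo. In serum the corresponding levels were 0, 1.07 and 6.52 CPM. The groups did not overlap, which was true of 7.11% of all genes tested. Embryo B3 had no ACADS count in 4242413, which allows a level of up to 0.707 CPM (3 counts of the total, counting error only), and B2 and B5 had 1 count each, of 4558324 and 9000447. Among the other serum embryos, B7, B8 and B1 had 4, 5 and 12 counts, and B6 and B4 had 18 and 36. The count in A4, the lowest in vivo embryo, was 43 of 4581458. The mean was 23.6 ± 10.2 CPM in vivo and 1.95 ± 2.28 CPM in serum (SD, n = 8 each). The fitted log2 FC was -3.61 ± 0.65 (SE), an FC of 12.2 (edgeR quasi-likelihood test, adjusted p = 0.00073). Without B2 it was -3.42 (adjusted p = 0.00065), and the call held whichever of the 16 embryos was left out. The trophectoderm marker sums, whose part in the ACADS levels was not tested, were 327.9 CPM in B2, 463.3 CPM in B7 and 538.7 CPM in B5. They were 1222 CPM in B4, 1615 CPM in B1, 1796 CPM in B3, 2798 CPM in B6 and 5169 CPM in B8. All 8 sums lay below those of the in vivo embryos.

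ACADM, the medium-chain dehydrogenase, ranged from 83.1 to 191.4 CPM in vivo with a median of 125.5 CPM. In serum it ranged from 45.9 to 128.0 CPM with a median of 74.996 CPM, and 5 of the 8 serum embryos lay below the lowest in vivo embryo. The log2 FC was -0.74 ± 0.21 (adjusted p = 0.0141, edgeR) and -0.66 without B2 (adjusted p = 0.0264). ACADVL, the very-long-chain dehydrogenase, averaged 56.7 ± 11.1 CPM in vivo and 56.7 ± 16.9 CPM in serum (SD, n = 8 each). Its log2 FC was -0.03, with a 95% interval of -0.44 to 0.39, and its sign turned to 0.09 without B2 (adjusted p = 0.718). Of the 10 log2 FC in this comparison, the largest, that of ACADS, and the smallest, that of ACADVL, both belonged to the first dehydrogenation step.

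HADHA and HADHB encode the alpha and beta subunits of the mitochondrial trifunctional protein, which carries out the remaining steps of the cycle on long chains, and they are neighbouring genes in the bovine genome. HADHA ranged from 60.7 to 132.9 CPM in vivo with a median of 110.2 CPM, and from 21.9 to 70.5 CPM in serum with a median of 48.2 CPM. Of the 8 serum embryos, 6 lay below the lowest in vivo embryo, A2. The log2 FC was -1.22 ± 0.24, an FC of 2.33 (adjusted p = 0.00127, edgeR), and -1.08 without B2 (adjusted p = 0.00117). HADHB ranged from 94.7 to 187.6 CPM in vivo and from 29.5 to 176.7 CPM in serum, with medians of 142.2 and 105.9 CPM. B2 was the lowest serum embryo for both subunits. The log2 FC of HADHB was -0.42 ± 0.25 (adjusted p = 0.205, edgeR), and the 95% interval of -0.94 to 0.10 includes no change. Without B2 it was -0.25 (adjusted p = 0.306). The count of HADHA over that of HADHB in the same embryo, which is not corrected for gene length, was 0.772 ± 0.21 in vivo, 0.476 ± 0.18 in serum and 0.721 ± 0.216 in serum-free medium (SD, n = 8 each), a description that was not tested.

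ECHS1, the short-chain enoyl-CoA hydratase, ranged from 102.6 to 151.8 CPM in vivo with a median of 125.7 CPM. In serum it ranged from 47.6 to 129.9 CPM with a median of 85.1 CPM, and 5 of 8 serum embryos lay below the lowest in vivo embryo while B5, B6 and B8 lay within the in vivo range. The log2 FC was -0.59 ± 0.21 (adjusted p = 0.0371, edgeR). This call was lost when any of A1, A2, A4, A6, A7, A8, A9, B1, B2, B3 or B7 was left out, with log2 FC between -0.60 and -0.48 and adjusted p between 0.054 and 0.0861 in those 11 fits. HADH, the 3-hydroxyacyl-CoA dehydrogenase of medium and short chains, averaged 64.5 ± 10.2 CPM in vivo and 55.9 ± 16.3 CPM in serum (SD, n = 8 each). Its log2 FC of -0.23 had a 95% interval of -0.64 to 0.18 (adjusted p = 0.39, edgeR), and it was -0.28 without B2 (adjusted p = 0.281).

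Of the carnitine system, CPT2, which releases the acyl group inside the mitochondrion, ranged from 36.1 to 107.4 CPM in vivo and from 18.4 to 57.7 CPM in serum, with medians of 71.9 and 44.3 CPM. The ranges overlapped, and B3 alone lay below the lowest in vivo embryo. The log2 FC was -0.74 ± 0.24 (adjusted p = 0.0265, edgeR) and -0.69 without B2 (adjusted p = 0.0398). It missed the threshold without A3 (log2 FC -0.67, adjusted p = 0.0547) or A4 (-0.60, adjusted p = 0.074). CPT1A, which forms the acylcarnitine at the outer membrane and is the regulated entry step, averaged 64.8 ± 29.0 CPM in vivo and 73.9 ± 27.0 CPM in serum (SD, n = 8 each). The spread between embryos was wide, from 22.4 to 111.1 CPM in vivo and from 39.8 to 124.6 CPM in serum. The log2 FC of 0.16 (adjusted p = 0.688, edgeR) had a 95% interval of -0.43 to 0.76, and it was 0.20 without B2 (adjusted p = 0.618).

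ETFDH, the membrane dehydrogenase that passes the electrons of all acyl-CoA dehydrogenases to ubiquinone, ranged from 10.4 to 57.7 CPM in vivo with a median of 47.2 CPM. In serum it ranged from 16.1 to 29.3 CPM with a median of 18.1 CPM. The lowest value of all 24 embryos was that of the in vivo embryo A9, so the ranges overlapped fully, although the next lowest in vivo embryo, A8, had 25.2 CPM. The log2 FC was -1.07 ± 0.29, an FC of 2.1 (adjusted p = 0.00989, edgeR), and -1.14 without B2 (adjusted p = 0.00601). B2, the lowest serum embryo for HADHA, HADHB and ECHS1, was the highest serum embryo for ETFDH. Per embryo, the number of the 10 genes below the lowest in vivo value was 8 in B3, 6 in B2, 5 in B7, 4 in B4, 3 in B6 and 2 in each of B1, B5 and B8. Among serum-free embryos the number was 3 in C4 and C8, 2 in C1, C6 and C10, 1 in C2 and C7 and 0 in C3. The same count over all genes tested was not made.

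**Figure D2:**
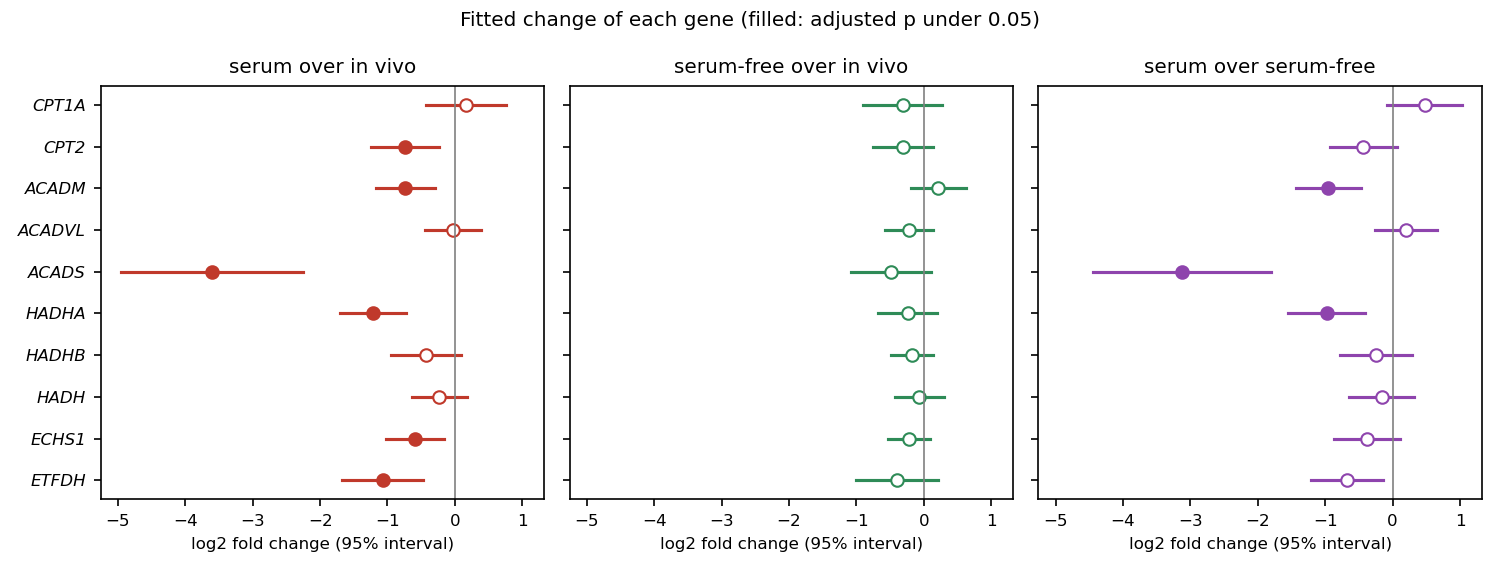
Fitted log2 FC of each gene (points) with its 95% interval (lines) for serum over in vivo, serum-free over in vivo and serum over serum-free, from left to right; filled points have an adjusted p under 0.05. Of the 10 genes, 6 points are filled on the left, 0 in the middle and 3 on the right, all 9 of them below 0.

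Embryos produced in serum-free medium were compared with the same in vivo derived embryos, so both comparisons share their controls. None of the 10 genes passed the test (edgeR), and none did by the exact test of edgeR or by DESeq2. Of all 7314 genes tested, 5.82% passed, 2.45% were lower in serum-free medium and 2.2% were differentially expressed. At an unadjusted p under 0.05 there were also 0 of the 10. The smallest p, that of ACADS (0.101, edgeR), ranked 2193 of 7314. Log2 FC (serum-free over in vivo) ran from -0.49 for ACADS to 0.22 for ACADM, the only gene with a positive value, and the median was -0.23 against 0.00304 over all genes tested. ACADS ranged from 11.6 to 32.1 CPM with a median of 15.6 CPM, so that all 8 serum-free embryos lay within the in vivo range, and its 95% interval of -1.07 to 0.10 includes no change. ACADM ranged from 68.0 to 234.2 CPM with a median of 158.9 CPM, with C4 below and C1 above all in vivo embryos. HADHA ranged from 43.8 to 134.7 CPM with a median of 94.3 CPM, and C8 and C4 were lower than every in vivo embryo. ECHS1 ranged from 70.2 to 147.5 CPM with a median of 110.8 CPM, and 4 of the 8 serum-free embryos were lower than every in vivo embryo. ETFDH ranged from 20.4 to 54.7 CPM with a median of 26.7 CPM, all within the in vivo range, and its 95% interval was -1.003 to 0.212 on the log2 scale. The 95% interval excluded a 2-fold difference in either direction for 8 of the 10 genes, the exceptions being ACADS and ETFDH.

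The embryos of both culture media were also compared with each other. Of the 10 genes, 3 were lower in serum, ACADS, ACADM and HADHA, against 16.3% of 7181 genes tested, 8.02% of them lower in serum. ACADS was differentially expressed (8.91% of all genes tested were). It again entered the test through one group alone, the serum-free embryos, and was favoured to be higher there, while ACADM and HADHA met the count limit in both groups. Its groups did not overlap (2.3% of all genes tested), with 6.52 CPM in B4, the highest serum embryo, and 11.6 CPM in C1, the lowest serum-free embryo. Log2 FC (serum over serum-free) was -3.13 ± 0.63 for ACADS (adjusted p = 0.00618, edgeR) and -2.95 without B2 (adjusted p = 0.0064). For ACADM it was -0.96 ± 0.23 (adjusted p = 0.0127), and -0.89 without B2 (adjusted p = 0.0187). For HADHA it was -0.98 ± 0.28 (adjusted p = 0.0239) and -0.86 without B2 (adjusted p = 0.034), but the call was lost without C1 (-0.85, adjusted p = 0.0508), C7 (-0.91, adjusted p = 0.0523) or B3 (-0.90, adjusted p = 0.0508). ETFDH had a log2 FC of -0.68 ± 0.25 (adjusted p = 0.0728), which passed without B2 (-0.76, adjusted p = 0.048), with DESeq2 (adjusted p = 0.0414), with the count limit on both groups (adjusted p = 0.0497) and with sex as covariate (adjusted p = 0.046). CPT1A was at 52.0 ± 21.6 CPM in serum-free medium and 73.9 ± 27.0 CPM in serum (SD, n = 8 each), a log2 FC of 0.47 (adjusted p = 0.217). With all embryos 1 gene was differentially expressed, against 2 without C8, C10, B6 or B8 and 3 without C4, B1 or B4, since the FC of ACADM (1.94) and HADHA (1.97) lay just under 2.

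**Figure D3:**
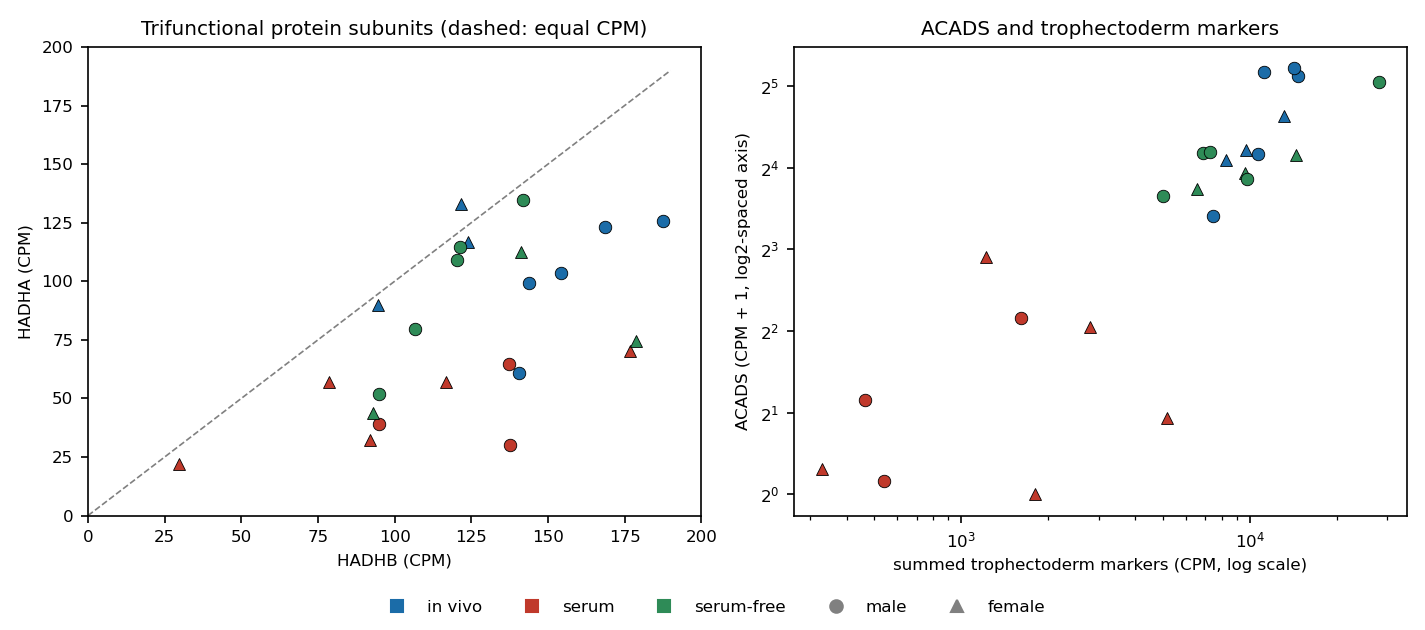
Left, HADHA against HADHB (CPM, linear axes) in each of the 24 embryos, with a dashed line at equal CPM; right, ACADS (CPM + 1, log2-spaced axis) against the sum of trophectoderm markers (CPM, log axis). Colours are culture conditions, circles male and triangles female embryos. The count ratio of HADHA to HADHB spanned 0.219 to 0.742 in serum and 0.431 to 1.09 in vivo, and in the right panel the serum embryos lie at marker sums of 327.9 to 5169 CPM.

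The sex of the embryos was considered next, since the study was designed to compare male and female embryos in each culture condition. In male embryos (5 in vivo, 3 serum), ACADS, HADHA and ETFDH were lower in serum, with log2 FC of -4.20 ± 0.87 (adjusted p = 0.00741), -1.23 ± 0.32 (adjusted p = 0.0214) and -1.23 ± 0.34 (adjusted p = 0.0258, edgeR). In this comparison 19% of 7762 genes passed, 9.77% of them lower in serum. The serum males held both the smallest total count of all embryos (B7, 3253051) and the largest (B5, 9000447). The mapping figures of the paper also show a low mapped share for some serum male libraries. The part of these library differences in the calls was not tested. ACADS entered this test through the in vivo males alone, since the 3 serum males had 1, 4 and 12 counts, and its call held without any 1 of the 8 embryos. The number of genes that passed was 4 without A8 or B1, 2 without A1, A2, B5 or B7, and 1 without A3 or A4. The HADHA call was lost without A3, A4, B5 or B7, at adjusted p between 0.0503 and 0.0757, and the ETFDH call without A1, A2, A3, A4 or B5, at adjusted p between 0.0505 and 0.0652. In female embryos (3 in vivo, 5 serum), none of the 10 genes passed (edgeR), where only 0.418% of 8138 genes did. At an unadjusted p under 0.05 there were 2, HADHA and ACADS, which ranked 464 and 559 of the 8138 genes by p. The log2 FC of ACADS was -3.11 ± 0.97 (adjusted p = 0.133) and that of HADHA -1.25 ± 0.37 (adjusted p = 0.12), and that of ETFDH -0.76 ± 0.49 (adjusted p = 0.396). The same 2 genes, ACADS and HADHA, passed in female embryos with edgeR's exact test, DESeq2 or a fit over all embryos. In those fits 491, 716 and 642 of the 8138 genes passed. HADHA also passed by the quasi-likelihood test without B2 (-1.08, adjusted p = 0.041), when it was the 1 gene that passed. ACADS entered the female tests through the in vivo females alone and was favoured to be higher there. The serum females had 0, 1, 5, 18 and 36 counts.

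The difference between the sexes was tested itself, as the interaction of sex and culture. The change in females minus that in males was 1.01 on the log2 scale for ACADS, with a 95% interval of -1.88 to 3.90, -0.05 for HADHA (-1.12 to 1.02) and 0.43 for ETFDH (-0.84 to 1.69). None of the 10 genes passed (edgeR, smallest adjusted p = 0.996, and 0 by DESeq2), as 0% of 8446 genes did. At an unadjusted p under 0.05 there were 0 of the 10, against 5.16% of all genes tested. ACADS in males was 9.6 to 36.2 CPM in vivo and 0.12 to 3.46 CPM in serum, and in females 16.1 to 23.8 CPM in vivo and 0 to 6.52 CPM in serum.

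In serum-free medium, none of the 10 genes passed in male embryos (edgeR; 3 at an unadjusted p under 0.05), against 1.76% of 7662 genes, and none in female embryos (2 at an unadjusted p under 0.05; none by the exact test or DESeq2), against 0.304% of 8211 genes. ETFDH in male embryos came nearest, with 25.2 to 56.5 CPM in vivo and 20.4 to 31.1 CPM in serum-free medium, a log2 FC of -0.91 ± 0.26 (adjusted p = 0.0842). It passed with edgeR's exact test (adjusted p = 0.037) and with DESeq2 (adjusted p = 0.016), where 343 and 463 of the 7662 genes passed. In female embryos its log2 FC was 0.35 ± 0.51 (adjusted p = 0.82), with 10.4 to 57.7 CPM in vivo and 30.0 to 54.7 CPM in serum-free medium. The change in females minus that in males was 1.26 (95% interval 0.10 to 2.42) for ETFDH and 0.70 (0.12 to 1.29) for HADHB. Their unadjusted p (edgeR) was 0.0341 and 0.0212, where 6.59% of all genes tested had an unadjusted p under 0.05. After adjustment neither passed (adjusted p = 0.715 and 0.695, edgeR; 0 of the 10 by DESeq2), nor did any other gene (0% of 8425).

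**Figure D4:**
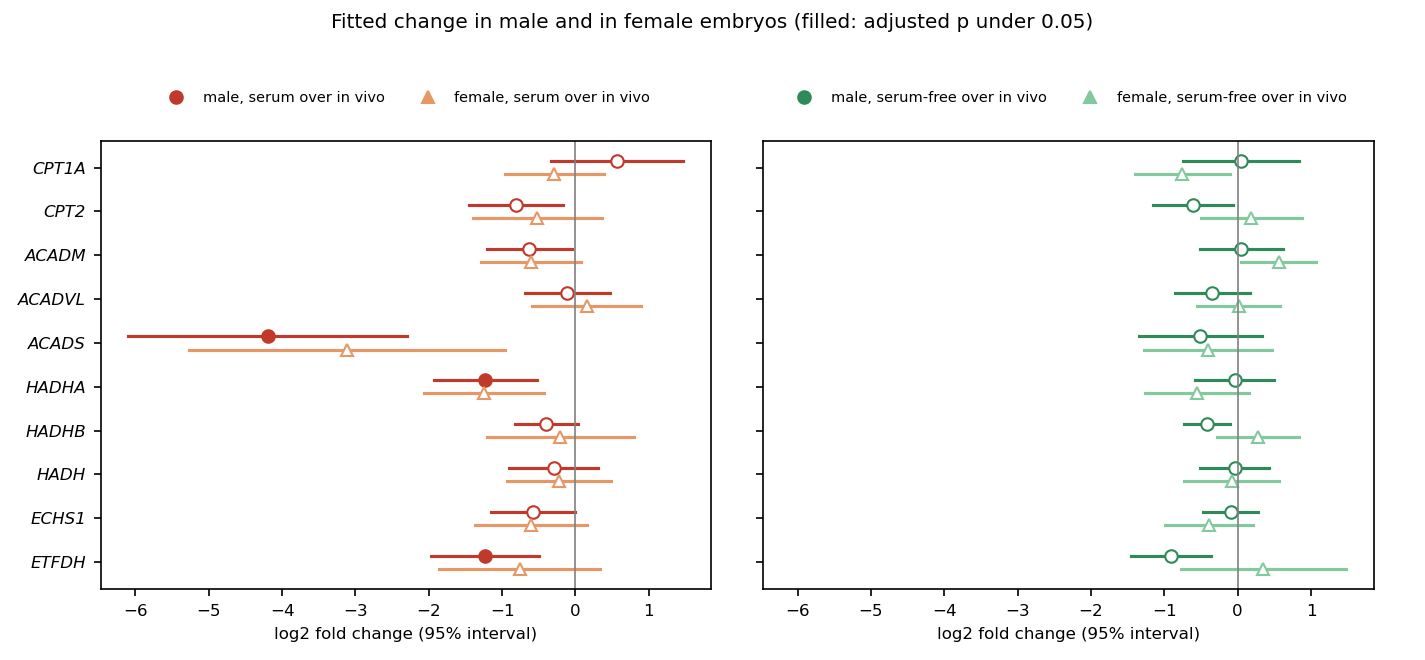
Fitted log2 FC with 95% intervals in male (circles) and female (triangles) embryos, serum over in vivo on the left and serum-free over in vivo on the right; filled symbols have an adjusted p under 0.05. The 3 filled symbols are ACADS, HADHA and ETFDH of male embryos in serum.

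Between male and female embryos of the same culture condition, none of the 10 genes passed the test. In vivo, 1.26% of 7963 genes passed, in serum 0.173% of 7534 and in serum-free medium 0.152% of 7918. The log2 differences (female over male) of the 10 genes ran from -0.47 to 0.75 in vivo and from -0.34 to 0.85 in serum-free medium, and those of the 9 tested in serum from -0.42 to 0.20, where ACADS was not tested for lack of counts. At an unadjusted p under 0.05 there were 2 genes in vivo, 0 in serum and 1 in serum-free medium. The shares above are at an adjusted p, so these counts have no share of all genes beside them. Neither edgeR's exact test nor DESeq2 called any of the 10.

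The enzymes around these 10 were examined from lists of the pathway. The counts below stand against 28.3% of all genes tested that passed between serum and in vivo, 13.4% lower and 14.8% higher, and with 3 to 13 genes tested in a list they are descriptions. Of 13 genes listed for fatty acid activation and carnitine transport, 12 were found and 8 were tested in serum against in vivo, of which 1 was higher, 1 was lower and 6 did not pass. The one that was lower was ACSL3, an acyl-CoA synthetase (log2 FC -0.85 ± 0.25, adjusted p = 0.0157, edgeR). The one that was higher was SLC25A20, the carrier of acylcarnitines across the inner membrane that stands between CPT1A and CPT2. It ranged from 51.0 to 119.9 CPM in vivo with a median of 61.0 CPM, and from 64.5 to 235.7 CPM in serum with a median of 98.9 CPM. Its log2 FC was 0.70 ± 0.24 (adjusted p = 0.0318, edgeR), and the call was lost without A2, A3, A6, A9 or B5, with log2 FC between 0.50 and 0.69 and adjusted p between 0.0502 and 0.063. CPT1B, the muscle form of CPT1, was at 41 counts or less in every embryo, and was not tested.

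Of 15 other mitochondrial enzymes of beta-oxidation listed, 13 were found and 7 were tested, of which 2 were lower in serum and 5 did not pass, a share close to that of all genes tested (28.3% passed). ETFA, the alpha subunit of the electron transfer flavoprotein that hands electrons to ETFDH, was at 121.6 to 228.2 CPM in vivo, with a median of 192.3 CPM, and at 42.4 to 92.3 CPM in serum, with a median of 75.8 CPM. The groups did not overlap (7.11% of all genes tested), and the log2 FC was -1.40 ± 0.17, an FC of 2.65 (adjusted p = 4.74e-05, edgeR). Its partner subunit ETFB had a log2 FC of -0.28 ± 0.13 (adjusted p = 0.12). ACAD9, an acyl-CoA dehydrogenase that also serves the assembly of respiratory complex I, had a log2 FC of -1.92 ± 0.32, an FC of 3.78 (adjusted p = 0.000505). ACAA2 and HSD17B10, which act at the last step and the one before it of the cycle, had log2 FC of 0.01 (adjusted p = 0.967) and -0.17 (adjusted p = 0.688), and the sign of both turned under other settings. Without B2 the value of HSD17B10 was -0.04 (adjusted p = 0.936). ACADL, ECI1 and DECR1 were too low to be tested, with means of 1.99, 3.22 and 2.81 CPM in vivo and 2.52, 1.73 and 1.57 CPM in serum. In serum-free medium, ETFA was the 1 enzyme of this list that passed against in vivo (5.82% of all genes tested did; log2 FC -0.61 ± 0.15, adjusted p = 0.0212), with 85.5 to 163.9 CPM and a median of 120.9 CPM. The call was lost without A7 (-0.55, adjusted p = 0.0503) and in the fit over all 24 embryos (adjusted p = 0.0741). ACAD9 missed the threshold between serum-free medium and in vivo (log2 FC -0.66, adjusted p = 0.0723) but passed without C7 (-0.79, adjusted p = 0.0251), with edgeR's exact test (adjusted p = 0.0449) and with DESeq2 (adjusted p = 0.0406). The level of ETFA was lower in serum than in serum-free medium (log2 FC -0.80 ± 0.19, adjusted p = 0.012, edgeR), and that of ACAD9 likewise (-1.26 ± 0.35, adjusted p = 0.0233, and 0.059 without C7).

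The propionyl-CoA pathway, which takes up the end product of odd-chain oxidation, was lower in serum in the 3 of its 4 genes that were tested (13.4% of all genes tested were lower). PCCB, the beta subunit of propionyl-CoA carboxylase, had a log2 FC of -1.17 ± 0.19 (adjusted p = 0.00033), and its groups did not overlap (7.11% of all genes tested). MCEE, the methylmalonyl-CoA epimerase, had -1.73 ± 0.56 (adjusted p = 0.0264; 0.0599 without A6 and 0.06 without A7), and MUT, the mutase, had -1.01 ± 0.25 (adjusted p = 0.007, edgeR). MCEE met the count limit in the in vivo group alone, where it was therefore favoured to be higher. The alpha subunit, PCCA, met the count limit in the serum-free group alone, was tested only where those embryos entered, and was favoured to be higher in them. It was at 0 to 18.7 CPM in vivo, 0.29 to 9.05 CPM in serum and 7.03 to 49.4 CPM in serum-free medium, with a log2 FC of -2.40 ± 0.50 for serum over serum-free (adjusted p = 0.00701, edgeR). None of these 4 genes passed between serum-free medium and in vivo.

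Peroxisomal beta-oxidation shortens very long chains outside the mitochondrion. Of its 14 genes, 7 were tested, 3 (SCP2, ACAA1 and ABCD3) were lower in serum (13.4% of all genes tested were) and 4 did not pass. SCP2, whose products include a peroxisomal thiolase, had the largest difference, with a log2 FC of -1.19 ± 0.23 against in vivo (adjusted p = 0.00131) and -1.46 ± 0.30 against serum-free medium (adjusted p = 0.00638, edgeR). Of the 5 ketone body genes, 3 were tested and none passed (edgeR). Of 12 regulators, 4 were tested and 1 passed: PPARGC1A, a coactivator of mitochondrial gene expression, with a log2 FC of -1.64 ± 0.49 against in vivo (adjusted p = 0.0178) and -1.90 ± 0.52 against serum-free medium (adjusted p = 0.0218; 0.0531 without C1). It met the count limit in both of these groups but not in serum, and was favoured to be lower in serum. Acyl-CoA synthetase ACSL6 and the carnitine transporter SLC22A5 were lower in serum than in serum-free medium, with log2 FC of -1.34 ± 0.40 (adjusted p = 0.0303) and -1.68 ± 0.56 (adjusted p = 0.046). The first call was lost without C7, B3, B5 or B7 (adjusted p between 0.0528 and 0.0742) and the second without any of 12 of the 16 embryos, C1, C2, C4, C7, C8, C10, B2, B3, B5, B6, B7 and B8 (adjusted p between 0.0503 and 0.093). SLC22A5 met the count limit in the serum-free but not in the serum group, and was favoured to be lower in serum. Against in vivo these 2 genes did not pass (adjusted p = 0.0774 and 0.206), but ACSL6 did with DESeq2 (adjusted p = 0.0478), in the fit over all 24 embryos (adjusted p = 0.038) and without B2 (-0.70, adjusted p = 0.041), B6 (-1.06, adjusted p = 0.0495) or B8 (-1.07, adjusted p = 0.0437).

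General mitochondrial genes were examined for comparison. Of 7 nuclear genes tested for mitochondrial content, 1, TIMM23, was higher in serum and none lower, with a list median of 0.23 on the log2 scale. Of the 13 protein-coding genes of the mitochondrial genome, 1 was higher, ND1 (log2 FC 1.12 ± 0.32, adjusted p = 0.0144, edgeR), 2 (MT-CO2 and COX3) were lower and 10 did not pass, with a median of -0.19. Without B2, ETFA, ACAD9, PCCB, MCEE, MUT, SCP2, PPARGC1A, SLC25A20 and ND1 still passed between serum and in vivo, with adjusted p from 2.15e-05 for ETFA to 0.0402 for MCEE (edgeR). ACSL3, ACAA1, ABCD3, TIMM23, MT-CO2 and COX3 were named after their values were seen. The sum of the levels of the 10 genes was 834.6 ± 71.5 CPM in vivo, 575.7 ± 133.9 CPM in serum and 749.1 ± 100.9 CPM in serum-free medium (SD, n = 8 each).

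**Figure D5:**
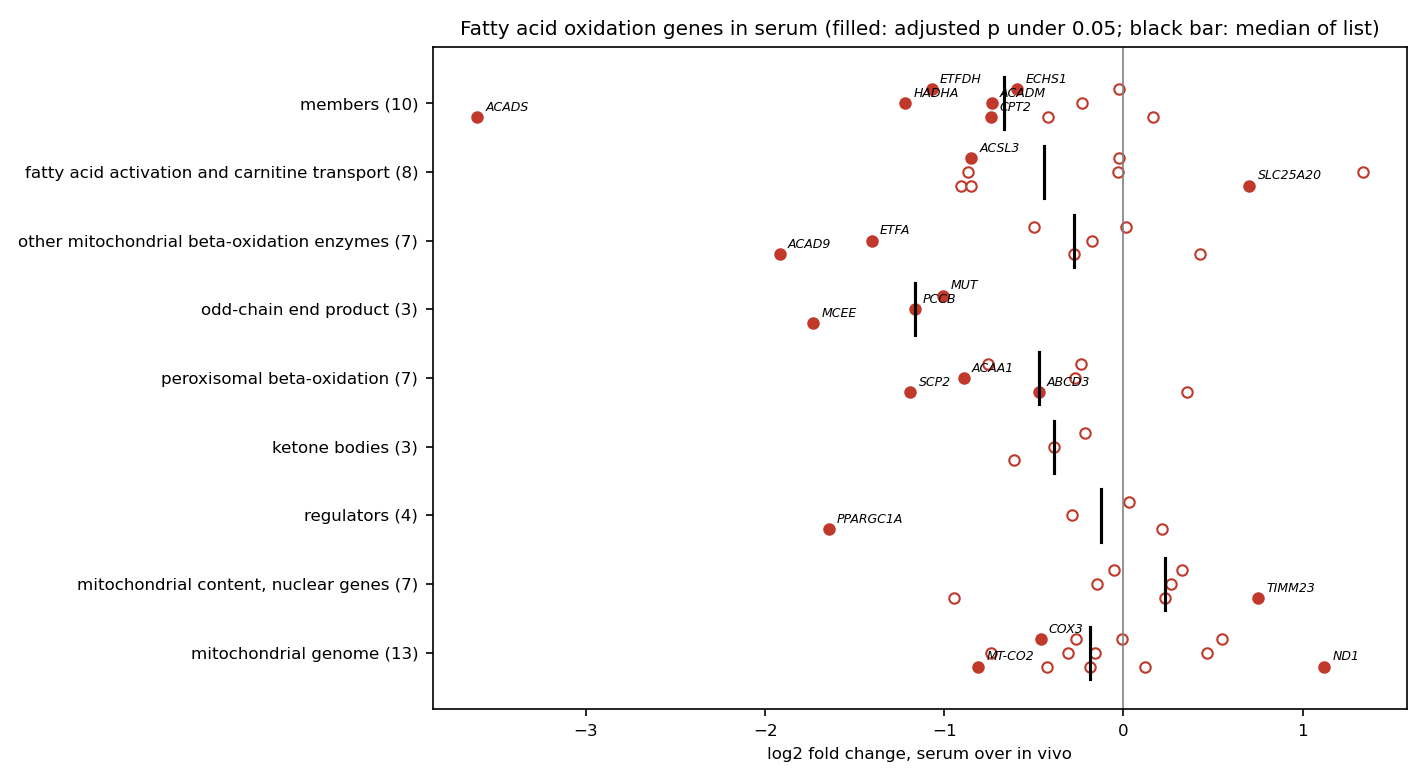
Log2 FC of serum over in vivo (horizontal axis) for every tested gene of each list, with the number tested in brackets; filled points, labelled by gene, have an adjusted p under 0.05, and black bars are list medians. The 10 genes have a median of -0.67 and the odd-chain genes one of -1.17, against 0.01 for all 7339 genes tested.

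Genes whose pattern over the 24 embryos was most like that of ACADS and HADHA, which had the smallest adjusted p of the 10, were looked up among the other 7338 genes tested. The measure was Pearson's r of log2 levels, which is a description, since the embryos share culture conditions and libraries. For ACADS they were DCXR_2 (r = 0.93), ATP2B1 (0.93) and ELMO3 (0.92), and within culture conditions, after subtraction of each condition's mean, r was 0.75, 0.87 and 0.71. For HADHA they were PMPCB (0.92), KRT7 (0.87) and FAM195B (0.87), with 0.85, 0.73 and 0.71 within conditions. PMPCB is a subunit of the mitochondrial peptidase that trims imported proteins, and KRT7 a keratin of simple epithelia.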

How the data were processed

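RNA of 24 single early blastocysts was amplified with an unstranded kit for low input and sequenced. The authors mapped the reads to Bos taurus build UMD 3.1.75 with CLC Genomics Workbench 7.0.4 and deposited raw counts of fragments per gene over exons, without molecular identifiers, and reads of overlapping genes cannot be told apart by strand. Samples were grouped by the culture and sex in their labels. From the counts, CPM values were computed with TMM factors, and genes with 15 counts or more in every embryo of at least 1 group compared were tested with the quasi-likelihood test of edgeR 4.0.16 (R 4.3.3), two-sided, with Benjamini-Hochberg adjustment over all genes tested. A gene passed at an adjusted p under 0.05 and was called differentially expressed if its FC was also at least 2. The share of all genes at an unadjusted p under 0.05 is given for the interaction only, so other counts at that threshold are descriptions. Intervals are 95% intervals. Correlations between embryos or genes used log2(CPM + 1).

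The total count per embryo was 3253051 to 9000447, and floors are 3 counts of the total, for counting error only and without TMM scaling. Alternatives were edgeR's exact test, DESeq2 1.42.0, its size factors, count limits, a fit over all 24 embryos, sex as covariate, the replicate number as block, and leaving out each embryo. The scripts were tested on simulated data. The 10 genes, the pathway and marker lists and the tests were chosen with earlier results of these data known. Named genes are the 10, a fixed set of pathway genes, and list genes differentially expressed with the sexes pooled, and a few more that are marked as named after their values were seen. No sequence is shown. The genes most like ETFDH in pattern are not reported here.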

Additional observations from a re-analysis of the deposited data

Results flagged for a closer look

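The highest or lowest embryo of each group of 5 or 8 was compared with its nearest neighbour for every gene (Dixon's 95% critical value), and 5 of 60 groups held an embryo that stood apart, where chance alone flags about 1 in 20 groups. ACADS stood apart in the serum-free embryo C7, with 32.1 CPM against 17.3 CPM in the next highest, both among all 8 serum-free embryos and among the 5 males. C7 also had the highest trophectoderm marker sum of all embryos, 28102 CPM, and the part of this in its ACADS level was not tested. ETFDH stood apart in the serum-free male C6, with 31.1 CPM against 23.3 CPM in the next highest male. ACADVL stood apart in the in vivo embryo A2, with 81.1 CPM against 59.9 CPM in the next highest. CPT2 stood apart in the serum embryo B3, with 18.4 CPM against 39.2 CPM in the next lowest.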

How the results depend on the processing

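Over the alternative settings other than leaving out an embryo, 747 values of single genes were counted. Single-gene values between male and female embryos are not among them. Those of HADHB are included only with the sexes pooled and in the serum-free interaction. Of the 747, 683 kept their direction and side of the threshold, 30 lost and 22 gained a call, and 12 changed direction. Direction changed where the log2 FC was near 0. For serum over in vivo, ACADVL turned to 0.0075 in the fit over 24 embryos and 0.0073 with sex as covariate. ACAA2 turned to -0.042 with the limit of 15 counts in both groups, -0.086 with the replicate block and -0.066 in the same embryos without the block, where HSD17B10 turned to 0.0057. For serum-free over in vivo, HADH turned to 0.035 with the block and 0.062 without it in the same embryos, and ACAA2 to -0.0051 in the fit over 24 embryos. For serum over serum-free, ACAA2 turned to 0.0052 with a limit of 1 count, 0.14 in the fit over 24 embryos and 0.11 with sex as covariate.

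The number of the 10 genes that passed in female embryos in serum was 2 with the exact test, DESeq2 or the fit over 24 embryos. That in male embryos in serum-free medium was 1 with the exact test or DESeq2. In both the main count was 0. The number of all genes called rose as well. It went from 34 of 8138 to 491, 716 and 642 in females in serum, and from 135 of 7662 to 343 and 463 in males in serum-free medium. With a limit of 1 count, CPT2, ECHS1, MCEE and SLC25A20 missed the threshold for serum over in vivo (adjusted p = 0.0566, 0.0911, 0.0545 and 0.06, edgeR), and HADHA, ACSL6 and SLC22A5 for serum over serum-free (adjusted p = 0.0532, 0.0529 and 0.113). SLC22A5 also missed it there with sex as covariate (adjusted p = 0.0534).

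Replicate numbers are shared between groups, but in the pairing check the correlation of deviations ran from -0.123 to 0.083 over 7 pairs for in vivo and serum, with 0 pairs over 0.1, so the numbers do not pair the embryos. With the replicate block, 5 of the 10 genes passed for serum over in vivo and 3 were differentially expressed, over 1077 genes called against 1727 in the same embryos without the block. For serum over serum-free, 0 passed and 0 were differentially expressed with the block (30 genes called, 624 without it), against 2 differentially expressed in the same embryos without the block.

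With 1 embryo left out, log2 FC for serum over in vivo ran from -0.091 to 0.094 for ACADVL and -0.045 to 0.088 for ACAA2. For serum-free over in vivo it ran from -0.15 to 0.0029 for HADH, -0.11 to 0.46 for PPARGC1A and -0.047 to 0.11 for ACAA2, and for serum over serum-free from -0.10 to 0.092 for ACAA2. For serum-free over in vivo by sex, it ran from -0.19 to 0.10 for HADHA in males and from -0.076 to 0.98 for ETFDH in females. The interaction ran from -0.27 to 0.34 for HADHA in serum and from -0.035 to 0.42 for ACADS in serum-free medium. The number of the 10 genes that were differentially expressed was 1 to 3 for serum over serum-free, and the number that passed was 2 to 4 there, 4 to 6 for serum over in vivo, 1 to 4 in males in serum and 0 to 1 in females in serum. Low ACADS counts in serum limit the precision of its FC, and 3 embryos in some sex groups limit what those tests can detect.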

Other observations

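The count ratio of HADHA to HADHB, not corrected for gene length, was 0.431 to 0.730 in the 5 male and 0.943 to 1.09 in the 3 female in vivo derived embryos, without overlap. In serum-free medium the means were in the other order, 0.817 ± 0.173 in 5 males and 0.561 ± 0.205 in 3 females (SD), and in serum they were 0.367 ± 0.132 in 3 males and 0.542 ± 0.183 in 5 females (SD). In vivo, HADHB was at 140.7 to 187.6 CPM in males and 94.7 to 124.0 CPM in females, without overlap. HADHA overlapped there, with 60.7 to 125.8 CPM in males and 90.0 to 132.9 CPM in females. The ratio was looked at after the values were seen and was not tested. How many ratios separate 5 embryos from 3 in this way was not counted, and the share of all genes that do is not given here. None of the 10 genes, HADHB included, passed the test between the sexes in vivo (smallest adjusted p = 0.187, edgeR).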
